A study of Mus musculus with 15 samples.

Results

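Small RNA sequencing of mouse pancreatic acini was examined for the cluster of miR-221 and miR-222, a pair of microRNA (miRNA) genes on chromosome X. The members were fixed by name: mmu-miR-221-3p and mmu-miR-221-5p, the arms of the miR-221 hairpin, and mmu-miR-222-3p, the main arm of the miR-222 hairpin, written without the prefix from here on. They are 3 of 1915 mature miRNAs in the deposited table, and all 3 had counts in each of 15 libraries. The acini came from C57BL/6 mice aged 7 to 8 weeks and were divided among 5 groups of 3 libraries: caerulein at 100 nM, caerulein at 100 pM, TLC-S at 250 uM, TLC-S at 62.5 uM, and a control that received no agent. Caerulein stimulates cholecystokinin receptors of acinar cells, and the submitters call 100 nM pathological and 100 pM physiological. TLC-S, the sulfated bile acid taurolithocholate, is used to injure acini. How long the acini were exposed is not stated in the labels. The RNA is described as pooled from 3 independent acinar preparations, without a statement of which library holds which, so every p-value measures the spread between these libraries and that spread may be technical.

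Both genes are transcribed as 1 primary transcript in mammals, from which each hairpin is cut and its arms loaded into Argonaute. A miRNA finds its targets mainly through its seed, bases 2 to 8 from the 5′ end, and miRNAs with a common seed share many targets. miR-221-3p and miR-222-3p are best known for lowering Cdkn1b, the inhibitor of cyclin-dependent kinases called p27Kip1, and the stem cell factor receptor Kit. They are abundant in vascular endothelium and smooth muscle, and are raised in many epithelial tumours, pancreatic ductal carcinoma included.

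The mature sequences are shown with the seed in capitals, because the seed is what joins the 3p arms of both genes and sets the 5p arm apart. All 3 members matched RefSeq (GRCm38.p6), from which these sequences were taken.
miR-221-3p: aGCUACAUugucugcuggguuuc
miR-222-3p: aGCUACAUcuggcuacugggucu
miR-221-5p: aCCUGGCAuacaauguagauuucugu
The 3p arms are both 23 bases long and identical over the first 8 bases from the 5′ end, seed included. After that they diverge, from U9C onward, with miR-221-3p given first and positions counted from 1 at the 5′ end, and over the full length 11 of 23 positions match. Among 1679 mature names in the RefSeq table, 3 carry the seed GCUACAU. The remaining one, miR-1928 on chromosome 1, has a row in the deposited table with 0 counts in 15 libraries, so no reads were assigned to it. Of the 1915 deposited names 1623 matched RefSeq, and the others were not searched for this seed. Of the same 1679 names only miR-221-5p carries the seed CCUGGCA.

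The hairpins show from where each mature arm is cut, with the mature arms that RefSeq lists in capitals.
Mir221: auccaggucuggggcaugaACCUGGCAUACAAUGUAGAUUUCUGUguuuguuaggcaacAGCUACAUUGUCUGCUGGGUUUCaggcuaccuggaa
Mir222: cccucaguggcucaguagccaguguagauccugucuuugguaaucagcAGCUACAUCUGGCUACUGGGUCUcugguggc
Mir221 lies at chrX:19146294-19146388 and Mir222 at chrX:19146893-19146971, both on the minus strand of GRCm38, with 504 bases between them. In GENCODE M21 no other gene overlaps this interval, and the nearest gene upstream on the same strand is the processed transcript Gm14636, 10009 bases away.

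The shallowest and the deepest library, with 535473 and 5087728 counts, both belonged to caerulein 100 nM (replicates 2 and 3). Levels are given in CPM, counts scaled to a common library size, after TMM scaling, which corrects for differences in composition between libraries. Of 1915 miRNAs, 351 passed the filter on low counts and were tested, the 3 members among them, at mean CPM ranks of 118 for miR-221-3p, 190 for miR-222-3p and 279 for miR-221-5p. Acinar markers (5 miRNAs, miR-148a-3p and arms of miR-216a, miR-216b and miR-217) held 26.7% to 57.9% of counts, so the libraries carried the labelled tissue's markers. The 2 islet markers held 5.81% to 14.7%. Endothelial markers, both arms of miR-126a, held 0.363% to 0.839%, the 6 stellate, mural and mesenchymal markers 0.866% to 1.98%, and the 4 leukocyte markers 0.00355% to 0.0111%. None of the acinar, endothelial or stellate markers was at 0 in any library. Fewer cells of a type and less RNA per cell cannot be told apart in such bulk libraries, which holds for every level below.

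miR-221-3p was the most abundant member in each library, with 5311 counts in all, against 1108 for miR-222-3p and 275 for miR-221-5p. In caerulein 100 nM libraries miR-221-3p was at 192, 159 and 111 CPM, and in caerulein 100 pM libraries at 206, 91.1 and 133 CPM. In TLC-S 250 uM libraries it was at 249, 216 and 147 CPM, and in TLC-S 62.5 uM libraries at 244, 236 and 205 CPM. In control libraries it was at 204, 129.7 and 191 CPM. The TLC-S 62.5 uM libraries thus lay above all 3 controls (205 CPM was their lowest and 204 CPM the highest control), and each of the other treated groups overlapped the controls. Ordered by mean, the groups ran from TLC-S 62.5 uM (229 ± 20.4 CPM, SD, n = 3) through TLC-S 250 uM (204 ± 52.1), control (175 ± 39.4) and caerulein 100 nM (154 ± 40.6) to caerulein 100 pM (143 ± 58.1). No 2 neighbours in this order differed by more than the larger of their SDs.

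miR-222-3p, which carries the same seed, was ordered differently. Caerulein 100 nM libraries held 34.8, 24.5 and 37.5 CPM and caerulein 100 pM libraries 53.4, 40.6 and 47.1 CPM. TLC-S 250 uM libraries held 45.7, 29.3 and 50.3 CPM and TLC-S 62.5 uM libraries 17.9, 30.1 and 42.0 CPM. Control libraries held 28.6, 32.2 and 30.1 CPM. Every caerulein 100 pM library therefore lay above every control and above every caerulein 100 nM library, while TLC-S 62.5 uM libraries fell on both sides of the controls. By mean the order was caerulein 100 pM (47.0 ± 6.37 CPM, SD, n = 3), TLC-S 250 uM (41.7 ± 11.1), caerulein 100 nM (32.3 ± 6.85), control (30.3 ± 1.79) and TLC-S 62.5 uM (30.0 ± 12.1). Again no 2 neighbours differed by more than the larger SD. In TMM-scaled CPM, miR-221-3p and miR-222-3p thus had opposite ends in their orders, the group lowest for one being the highest for the other, and the reverse, within the spread just given. Scaled by library totals alone, miR-222-3p instead had its highest mean with TLC-S 250 uM and its lowest in control.

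miR-221-5p, the minor arm of the miR-221 hairpin with a seed of its own, was scarce, with 1 to 42 counts per library. In caerulein 100 nM libraries its counts of 3, 1 and 31 corresponded to 1.47, 1.75 and 5.84 CPM. In caerulein 100 pM libraries it was at 12.6, 9.23 and 10.3 CPM, and in TLC-S 250 uM libraries at 8.66, 7.63 and 8.33 CPM. In TLC-S 62.5 uM libraries it was at 17.4, 16.9 and 5.51 CPM, and in control libraries at 11.1, 3.37 and 14.3 CPM. All caerulein 100 nM libraries lay below all caerulein 100 pM libraries, whereas 1 control library, at 3.37 CPM, lay inside the range of caerulein 100 nM. The means were 3.02 ± 2.45 CPM with caerulein 100 nM, 10.7 ± 1.73 with caerulein 100 pM, 8.21 ± 0.526 with TLC-S 250 uM, 13.3 ± 6.71 with TLC-S 62.5 uM and 9.62 ± 5.64 in control (SD, n = 3 each). Among neighbours in that order of levels, TLC-S 250 uM and caerulein 100 nM alone lay further apart than the larger of their SDs, and that pair was not tested. Counting error alone is wide at this depth: the single count in caerulein 100 nM replicate 2, at 1.75 CPM, has an exact Poisson 95% interval from 0.0443 to 9.75 CPM, and the 31 counts of replicate 3 one from 3.97 to 8.29 CPM. These intervals cover counting error only and treat each read as an independent count.

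**Figure D1:**
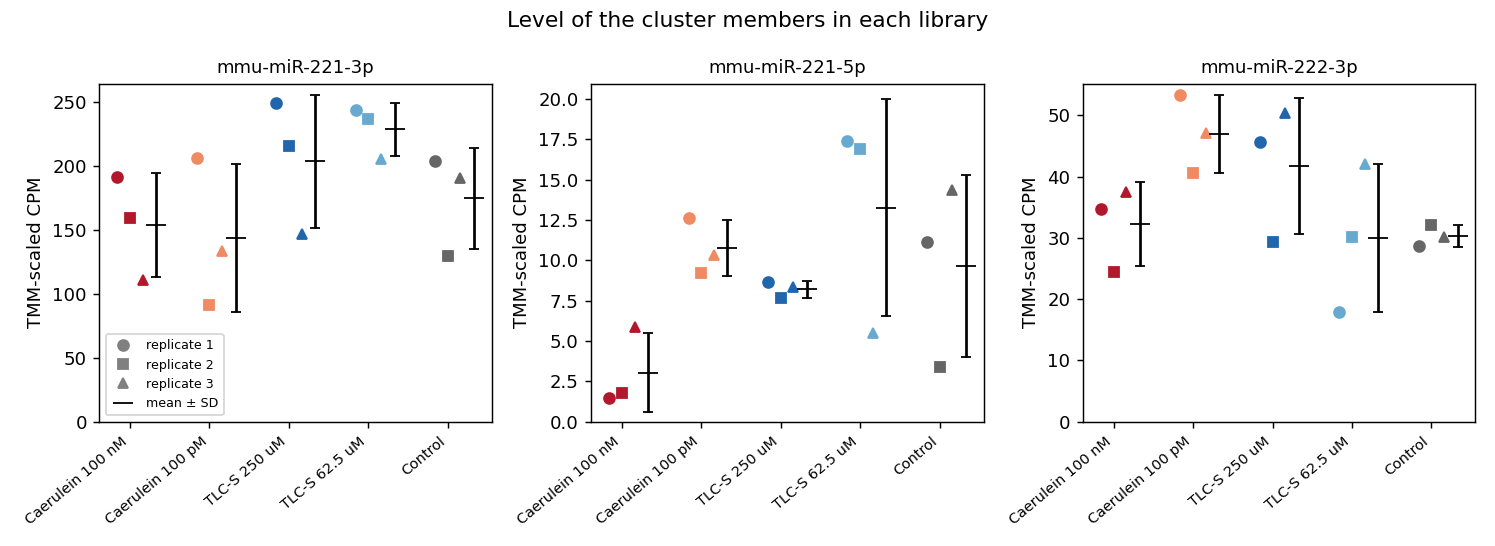
TMM-scaled CPM (vertical axes, from 0) of miR-221-3p, miR-221-5p and miR-222-3p in each library of the 5 groups; symbols are replicates, bars the mean ± SD of 3 libraries. The caerulein 100 nM libraries hold 1.47 to 5.84 CPM of miR-221-5p, and the 3 caerulein 100 pM libraries, at 40.6 to 53.4 CPM, exceed every control for miR-222-3p. Scaled by library totals alone, the caerulein 100 pM libraries overlap the controls for miR-222-3p.

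The 5p arm of the miR-222 hairpin is not a member but completes the cluster. miR-222-5p had 41 counts over the 15 libraries, 0 counts in 5 of them, and did not pass the filter. Its counts were 2, 0 and 0 with caerulein 100 nM, 0, 0 and 3 with caerulein 100 pM, 1, 1 and 9 with TLC-S 250 uM, 5, 5 and 0 with TLC-S 62.5 uM, and 2, 8 and 5 in control. A library at 0 allows up to 3 counts. Pooled over the libraries of a group, the 5p arm held at most 6.88% of the reads of the miR-221 hairpin and at most 6.73% of those of the miR-222 hairpin.

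The pathological caerulein dose was set against control. With caerulein 100 nM, miR-221-5p averaged 3.02 CPM, against 9.62 CPM in control, a log2 fold change of -1.36 (SE 0.61, 95% interval -2.62 to -0.10). Its unadjusted p of 0.0349 ranked 8 among 351 miRNAs and did not pass over all of them (adjusted p = 0.984, edgeR's quasi-likelihood test with Benjamini-Hochberg adjustment). miR-221-3p, the other arm of the same hairpin, differed by -0.19 (SE 0.30), and miR-222-3p by 0.13 (SE 0.33). Of the members 0 of 3 passed with edgeR or DESeq2 and 1 of 3 had an unadjusted p under 0.05 with either; among all 351 miRNAs the adjusted share was 0% and the unadjusted share 3.42%. For 0 of 3 members the groups did not overlap, against 6.55% of all miRNAs. Without caerulein 100 nM replicate 3, the deepest library, the difference of miR-221-5p was -2.58, and without control replicate 3 it was -0.95 (adjusted p of 0.484 and 0.997, edgeR). It was -0.52 with limma on log2(RPM + 10), a scale that shrinks changes of low miRNAs. Endothelial markers were lower in 2 of 2, at a summed 3401 to 6247 CPM with caerulein 100 nM against 6721 to 8514 CPM in control. Of these, 0 of 2 passed. They were also lower in 2 of 2 with each other treatment against control. There miR-221-5p differed by 0.18 with caerulein 100 pM, -0.21 with TLC-S 250 uM and 0.50 with TLC-S 62.5 uM. Stellate, mural and mesenchymal markers were lower in 4 of 6 with caerulein 100 nM, at a summed 8758 to 14543 CPM against 11930 to 12659 CPM. Leukocyte markers were lower in 3 of 3 tested, at a summed 36.7 to 64.6 CPM against 53.0 to 71.4 CPM, with 0 called and up to 2 of 4 at 0 in a caerulein 100 nM library. As a description over the 15 libraries, miR-221-5p had r = 0.60 with summed endothelial, 0.25 with summed stellate and 0.45 with summed leukocyte markers. The part of these cells in the result was not tested.

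The physiological caerulein dose was set against the same controls. miR-222-3p averaged 47.0 CPM with caerulein 100 pM and 30.3 CPM in control, a log2 fold change of 0.63 (SE 0.33, 95% interval -0.054 to 1.32). It did not pass (unadjusted p = 0.0692, adjusted p = 0.826, edgeR), although the groups did not overlap after TMM scaling. Scaled by library totals alone, the groups overlapped for miR-222-3p. In TMM-scaled CPM, groups failed to overlap for 1 of the 3 members, upward, against 10.3% of all miRNAs in either direction and 5.41% of all miRNAs upward. miR-221-3p differed by -0.28 (SE 0.30) and miR-221-5p by 0.18 (SE 0.57). With edgeR and DESeq2, 0 of 3 members passed and 0 had an unadjusted p under 0.05, where the background was 0% adjusted and 6.84% unadjusted with edgeR. The upward difference of miR-222-3p stayed between 0.57 and 0.68 when any 1 library was left out, and was 0.41 with library totals and 0.31 with limma on log2(RPM + 10). Summed endothelial markers were at 4851 to 8768 CPM with caerulein 100 pM and 6721 to 8514 CPM in control, and stellate markers at 9457 to 14916 CPM and 11930 to 12659 CPM, so both overlapped.

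The bile acid at its higher dose gave differences within the spread for each member. With TLC-S 250 uM against control, miR-222-3p differed by 0.47 (SE 0.33, 95% interval -0.22 to 1.15), miR-221-3p by 0.22 (SE 0.30, -0.40 to 0.83) and miR-221-5p by -0.21 (SE 0.57, -1.39 to 0.97). All groups overlapped, while 7.12% of all miRNAs did not overlap. With edgeR and DESeq2, 0 of 3 members passed and 0 had an unadjusted p under 0.05, beside 0% adjusted and 1.14% unadjusted over all miRNAs with edgeR. The sign for miR-221-5p turned to 0.047 with limma on log2(RPM + 1) and to 0.21 without control replicate 3, so no direction is given for it.

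At the lower bile acid dose, miR-221-3p averaged 229 CPM with TLC-S 62.5 uM and 175 CPM in control, a log2 fold change of 0.39 (SE 0.30, 95% interval -0.22 to 1.00, adjusted p = 0.88, edgeR). The 3 treated libraries were above the 3 controls, in a comparison where 12.3% of all miRNAs did not overlap in either direction and 6.27% of all miRNAs did not overlap upward. Without control replicate 2, the lowest control, the difference of miR-221-3p was 0.21. miR-221-5p differed by 0.50 (SE 0.55), with 0.069 without control replicate 2 and 0.93 without control replicate 3. miR-222-3p differed by -0.025 (SE 0.33), with a sign that turned positive with library totals (0.10) and with limma on log2 RPM (0.043 at a pseudocount of 1 and 0.045 at 10). No member passed with edgeR or DESeq2 (0 of 3, and 0 of 3 at an unadjusted p under 0.05), against 0.570% of miRNAs adjusted and 7.41% unadjusted with edgeR. Endothelial markers were at a summed 4182 to 6674 CPM with TLC-S 62.5 uM and 6721 to 8514 CPM in control, lower in 2 of 2 with 0 called. Acinar markers were lower in 5 of 5 with 0 called, at a summed 292716 to 346052 CPM with TLC-S 62.5 uM. Control replicates 1 and 2 held 238857 and 282159 CPM of acinar markers, and control replicate 3 held 787934 CPM. Stellate, mural and mesenchymal markers were higher in 6 of 6 with 0 called (median log2 fold change 0.13), at a summed 11089 to 14687 CPM with TLC-S 62.5 uM and 11930 to 12659 CPM in control. The part of these lists in the level of miR-221-3p was not tested.

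**Figure D2:**
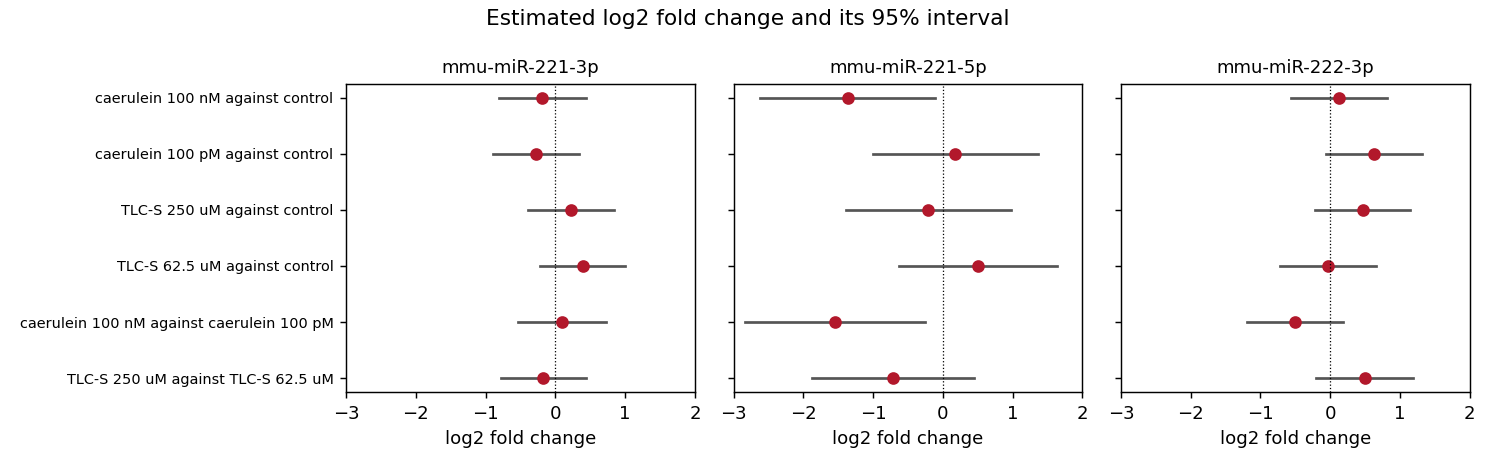
Log2 fold change (horizontal axes) of each member in the 6 comparisons, first-named group over second, as points with 95% intervals from edgeR. The intervals for miR-221-5p leave out 0 for caerulein 100 nM against control (-2.62 to -0.10) and against caerulein 100 pM (-2.83 to -0.26), before any adjustment over 351 miRNAs.

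Between the caerulein doses the minor arm stood lowest at the high dose. miR-221-5p averaged 3.02 CPM with 100 nM and 10.7 CPM with 100 pM, without overlap, and the log2 fold change was -1.54 (SE 0.63, 95% interval -2.83 to -0.26). Its unadjusted p of 0.0208 ranked 3 of 351 with edgeR and did not pass adjustment (adjusted p = 0.986, edgeR). After TMM scaling miR-222-3p was also without overlap, at 24.5 to 37.5 CPM with 100 nM and 40.6 to 53.4 CPM with 100 pM (log2 fold change -0.50, SE 0.34), and miR-221-3p differed by 0.093 (SE 0.30). Thus on that scale 2 of 3 members did not overlap, both downward, where 5.70% of all miRNAs did not overlap and 3.42% did so downward. Scaled by library totals alone, miR-222-3p overlapped and miR-221-5p did not. Of the members 0 of 3 passed with edgeR or DESeq2 and 1 of 3 had an unadjusted p under 0.05 with each, against 0% and 1.71% of all miRNAs with edgeR. This comparison and that with control share the caerulein 100 nM libraries. Left out in turn, these libraries put the difference of miR-221-5p between -2.73 (without replicate 3) and -1.11 (without replicate 1), and limma on log2(RPM + 10) gave -0.56. Endothelial markers were lower in 2 of 2 between these doses, at a summed 3401 to 6247 CPM with 100 nM and 4851 to 8768 CPM with 100 pM. Leukocyte markers were lower in 2 of 3 tested, at a summed 36.7 to 64.6 CPM with 100 nM and 46.2 to 56.3 CPM with 100 pM. The scarce miR-142a-5p and miR-223-3p (means of 4.07 and 3.82 CPM) differed by -2.00 (SE 0.79) and -0.82 (SE 0.70). The most abundant, miR-150-5p at a mean of 48.8 CPM, differed by 0.044 (SE 0.34). With 0 called in either list, their part in the difference of miR-221-5p was not tested.

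Between the TLC-S doses every member overlapped, while 12.0% of all miRNAs did not. At 250 uM against 62.5 uM, miR-221-5p differed by -0.71 (SE 0.57), miR-222-3p by 0.49 (SE 0.33) and miR-221-3p by -0.17 (SE 0.30). Of the members 0 of 3 passed and 0 had an unadjusted p under 0.05 with edgeR or DESeq2, beside 1.14% of all miRNAs adjusted and 8.83% unadjusted with edgeR. For miR-222-3p the difference was 0.22 without TLC-S 62.5 uM replicate 1, the lowest library at 17.9 CPM, and 0.85 without replicate 3 of that group. A single test over all 5 groups gave adjusted p = 0.70 for miR-221-5p, 0.881 for miR-221-3p and 0.904 for miR-222-3p (edgeR F test), where 0.855% of all miRNAs passed. At an unadjusted p under 0.05 this F test held 0 of 3 members with edgeR and 1 of 3 with DESeq2, against 7.41% of all miRNAs with edgeR.

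Ratios between members within a library do not depend on scaling between libraries. The log2 ratio of miR-222-3p to miR-221-3p was -1.53 ± 0.39 with caerulein 100 pM and -2.49 ± 0.43 in control (SD, n = 3 each), 0.96 higher without overlap (exact two-sided permutation p = 0.1, the smallest that 3 against 3 allows). It was -2.22 ± 0.58 with caerulein 100 nM, -2.28 ± 0.68 with TLC-S 250 uM and -3.0 ± 0.74 with TLC-S 62.5 uM, each overlapping control. As a share of the reads of both 3p arms, pooled over the 3 libraries of a group, miR-222-3p made up 21.0% with caerulein 100 nM (exact 95% interval 18.8% to 23.2%), 24.3% with caerulein 100 pM (21.4% to 27.4%), 18.6% with TLC-S 250 uM (16.6% to 20.9%), 11.1% with TLC-S 62.5 uM (9.55% to 12.7%) and 15.1% in control (13.3% to 17.1%). Single libraries ranged more widely than these counting intervals: from 13.3% to 25.3% with caerulein 100 nM, 20.6% to 30.8% with caerulein 100 pM, 11.9% to 25.6% with TLC-S 250 uM, 6.83% to 17.0% with TLC-S 62.5 uM and 12.3% to 19.9% in control. The deepest library supplied 199 of the 284 miR-222-3p reads of caerulein 100 nM. Caerulein 100 pM was the one treated group whose libraries all lay above those of control. Over all 5 groups the exact permutation p of the ratio was 0.113, so the 5 groups were not told apart at these numbers.

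The arm ratio of the miR-221 hairpin, like the level of the minor arm, had its lowest mean with caerulein 100 nM. The highest mean of the ratio was with caerulein 100 pM, while that of the minor arm was with TLC-S 62.5 uM. The log2 ratio of miR-221-5p to miR-221-3p was -5.65 ± 1.31 with caerulein 100 nM, -3.62 ± 0.37 with caerulein 100 pM, -4.55 ± 0.38 with TLC-S 250 uM, -4.24 ± 0.78 with TLC-S 62.5 uM and -4.36 ± 0.76 in control (SD, n = 3 each). Caerulein 100 nM was lower by 2.03 than caerulein 100 pM without overlap (exact two-sided permutation p = 0.1) and lower by 1.30 than control with overlap (exact p = 0.2). As a share of the hairpin's reads the 5p arm held 0.761% to 5.00% per library with caerulein 100 nM, 5.77% to 9.20% with caerulein 100 pM and 2.53% to 6.99% in control. Over all 5 groups the exact permutation p was 0.0905. Adjusted over these 14 ratio tests, the smallest p was 0.396.

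**Figure D3:**
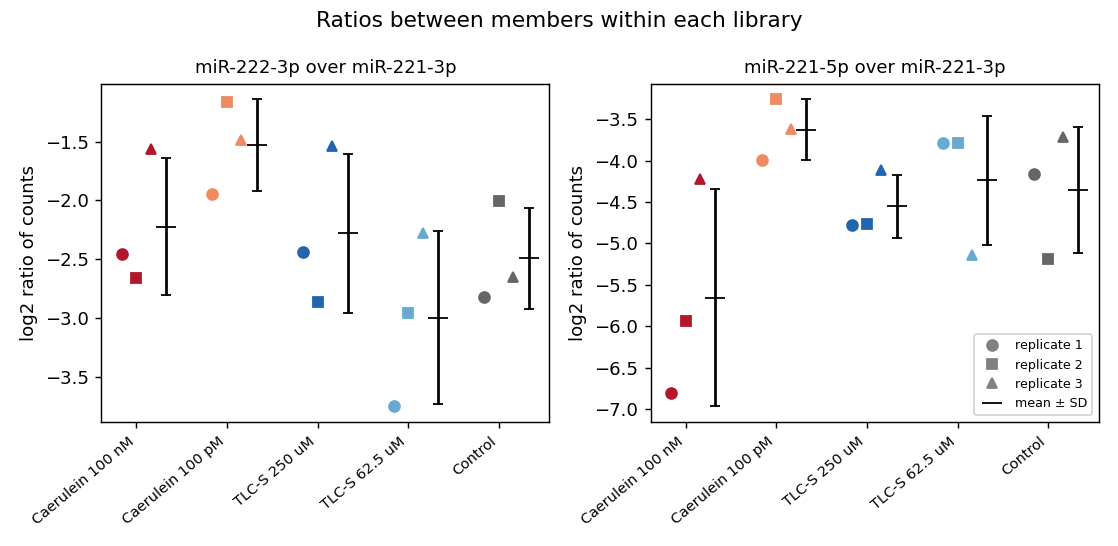
Log2 ratio of counts (vertical axes, 0.5 added to each count) of miR-222-3p over miR-221-3p and of miR-221-5p over miR-221-3p in each library of the 5 groups; symbols are replicates, bars the mean ± SD of 3 libraries. Caerulein 100 pM has the highest mean in both panels (-1.53 and -3.62), and caerulein 100 nM has the lowest mean for the 5p arm (-5.65).

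Although the members come from 1 locus, no pair of them had a correlation that passed over the 15 libraries. So few libraries cannot show that a moderate correlation is absent. On log2(CPM + 1), miR-221-3p and miR-222-3p had r = -0.29 and rho = -0.20 over 15 libraries (permutation p = 0.286 and 0.472), with r = -0.26 without the 2 libraries farthest from the median of miR-221-3p and r = -0.13 after subtracting group means. The arms of miR-221 had r = 0.28 and rho = 0.39 (permutation p = 0.304 and 0.152), r = 0.43 without the 2 farthest libraries and r = 0.18 within groups. miR-221-5p and miR-222-3p had r = -0.00146 and rho = -0.082 (permutation p = 0.996 and 0.773), r = -0.32 without the 2 farthest libraries and r = -0.21 within groups. Over these 3 pairs the smallest adjusted permutation p was 0.456. The counting error of miR-221-5p limits any correlation with it.

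**Figure D4:**
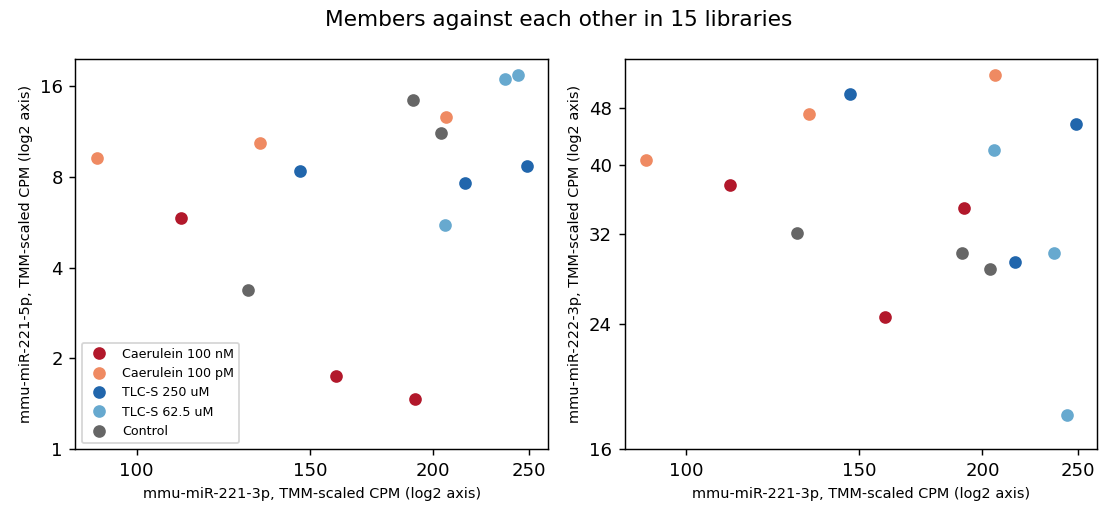
TMM-scaled CPM of miR-221-3p (horizontal, log2 axis) against miR-221-5p and miR-222-3p (vertical, log2 axes) in 15 libraries coloured by group. The points form no common line (r = 0.28 and -0.29 over 15 libraries).

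The miRNAs whose levels were most like each member over the 15 libraries were different for each, as a description on log2(CPM + 1) of libraries that share their depth and scaling. For miR-221-3p they were miR-484 (r = 0.87, 0.85 within groups), miR-29a-3p (r = 0.87, 0.88 within groups) and miR-15b-3p (r = 0.75, 0.80 within groups); miR-222-3p stood at place 269 by the same measure. For miR-222-3p they were miR-802-5p (r = 0.77, 0.72 within groups), miR-31-3p (r = 0.69, 0.58 within groups) and miR-6240 (r = 0.66, 0.68 within groups). For miR-221-5p they were miR-450a-5p (r = 0.69, 0.65 within groups), miR-152-3p (r = 0.67, 0.59 within groups) and miR-322-5p (r = 0.64, 0.53 within groups). The first and the last of these lie on chromosome X, as do 30 of the 312 tested miRNAs that matched RefSeq.

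Lists of related miRNAs are given as counts and medians only. miRNAs induced by inflammatory, NF-kB or AP-1 signalling, the class of signals that also raises miR-221 and miR-222 in other tissues, had 0 of 7 called in each of the 4 comparisons with control, where 0%, 0%, 0% and 0.570% of all miRNAs were called, so that a count of 0 here and in the lists that follow is that of the background. Their median log2 fold changes were 0.079 with caerulein 100 nM, 0.34 with caerulein 100 pM, 0.16 with TLC-S 250 uM and 0.037 with TLC-S 62.5 uM, where all tested miRNAs had medians of 0.032, 0.010, -0.034 and -0.0099. Their most abundant member, miR-21a-5p, which is induced in many injured epithelia, differed by -0.013 (SE 0.26) with caerulein 100 nM. Chosen after their values were seen, the scarcer arm miR-21a-3p differed by 2.18 (SE 0.71) with caerulein 100 nM and miR-146a-5p by 1.0 (SE 0.32) with TLC-S 62.5 uM, and neither passed (adjusted p of 0.432 and 0.229, edgeR). Of 9 miRNAs that act on the kinase inhibitors of the cell cycle or on the entry into S phase, 0 were called, with medians of -0.081, -0.17, -0.072 and 0.093 in the same order. Their most abundant member, miR-24-3p, differed by -0.21 (SE 0.24) with caerulein 100 nM. The other miRNAs of chromosome X counted 27 among the 312 tested miRNAs that matched RefSeq, and 0 of 27 were called in these 4 comparisons. Their medians were 0.070, 0.14, 0.048 and 0.076, with 14, 15, 14 and 15 of 27 positive, and miR-98-5p, a let-7 relative, was the most abundant at 3313 CPM.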

How the data were processed

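Small RNA libraries of mouse pancreatic acini were analysed from deposited tables. The submitters' processing notes name Bowtie, cutadapt and the builds GRCm38 and mm10. No label used here says how reads were counted. The deposited mature table holds estimated counts as whole numbers, each within 0.5 of the sum of that miRNA's rows in a second deposited table, of estimated counts by precursor. Each member has 1 precursor row and 0 fractional values there, so no member's reads were divided between hairpins. The deposited RPM table equalled the scaled precursor counts within 0.0313 and was used for that check alone.

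The 5 groups (15 libraries) were fitted jointly with edgeR 4.0.16 under R 4.3.3, after TMM scaling and a filterByExpr filter with a minimum count of 10 and a minimum total of 15. Contrasts were tested by quasi-likelihood (glmQLFTest), with 351 miRNAs tested, Benjamini-Hochberg adjustment over all of them, threshold 0.05. SEs were derived from the F statistic, and the common biological coefficient of variation was 0.285. Ratios used counts plus 0.5 and exact permutation tests, and correlations 100000 permutations. Alternatives were other scalings and filters, DESeq2 1.42.0, limma 3.58.1 on log2 of RPM computed from the mature counts, 2 groups alone, the highest precursor row, a replicate block, and leaving out each library. Groups came from sample titles, and replicate numbers from accession order, which runs parallel to 3 series of library codes of unstated meaning. No 2 replicates of a group looked like 1 library deposited again (lowest chi-square over its degrees of freedom 54.9). Highest by this measure was control replicate 3 against the other controls, at 1581 and 1657, and the next highest pair was at 585. Acinar markers held 57.9% of counts in control replicate 3, against 26.7% and 33.5% in control replicates 1 and 2. Named miRNAs were the members, miR-222-5p, miRNAs of the same seed, the 3 miRNAs most like each member, and the called or most abundant members of each list. Further listed miRNAs were named as cell type markers or, where stated, after their values were seen. The members and lists were chosen with earlier results of these data known. Figures were drawn with matplotlib 3.10.9.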

Additional observations from a re-analysis of the deposited data

How the results depend on the processing

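No member passed an adjusted p of 0.05 among 536 alternative values from refits (edgeR, DESeq2 or limma), and the smallest adjusted p among them was 0.282. Each value is 1 member in 1 comparison or F test under 1 setting, so fewer models than values were refitted. Of 648 alternative values for 35 results, 22 changed sign, 18 of them when 1 library was left out. Some of the 648 could not change sign, so 22 of 648 is no measure of stability. These are the F ratios over 5 groups, and the ratio differences under the replicate block, which equal the main value by construction. Scaling by library totals alone shifted the median of all tested miRNAs, on the log2 scale, by -0.24 for caerulein 100 pM against control, 0.10 for TLC-S 62.5 uM against control and 0.29 between caerulein doses. The sign changes that left out no library concerned miR-222-3p with TLC-S 62.5 uM (0.10 with library totals, 0.043 and 0.045 with limma at pseudocounts of 1 and 10) and miR-221-5p with TLC-S 250 uM (0.047 with limma at a pseudocount of 1). The filter at a mean CPM of 10 removed miR-221-5p, so that alternative gave it no value. Leaving out libraries gave ranges across 0 for miR-221-3p with caerulein 100 nM against control (-0.37 to 0.011), between caerulein doses (-0.093 to 0.45) and between TLC-S doses (-0.28 to 0.010). For miR-222-3p they were -0.00248 to 0.24 with caerulein 100 nM and -0.38 to 0.26 with TLC-S 62.5 uM against control. For miR-221-5p they were -0.26 to 0.61 with caerulein 100 pM and -0.60 to 0.21 with TLC-S 250 uM. For the ratio of miR-221-5p to miR-221-3p they were -0.62 to 0.13 with TLC-S 250 uM and -0.30 to 0.56 with TLC-S 62.5 uM. For the ratio of miR-222-3p to miR-221-3p they were -0.062 to 0.51 with caerulein 100 nM and -0.16 to 0.51 with TLC-S 250 uM. The cause of the sign changes was not tested. Depth limits miR-221-5p most, with 1 to 42 counts per library. Same-number libraries also share 1 of 3 series of library codes in the sample titles, whose meaning no label gives, so the numbers were not taken as pairs: 15 of 30 same-number pairs correlated above 0.1 and 12 of 15 libraries correlated best with their own number, and with the replicate block miR-221-5p differed by -1.38 with caerulein 100 nM against control and by -1.63 between caerulein doses (adjusted p of 0.843 and 0.953, edgeR), and no call changed under it.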

Other observations

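The effect of dose was set against itself between agents, as high minus low dose of caerulein minus high minus low dose of TLC-S, in a test chosen after the values were seen. For miR-222-3p this log2 difference was -1.0 with an SE of 0.47 (unadjusted p = 0.046, adjusted p = 0.910, edgeR), since the high dose of caerulein lay below its low dose by 0.50 and the high dose of TLC-S above its low dose by 0.49. It did not pass over 351 miRNAs, and the doses of the 2 agents are not matched. For miR-221-5p it was -0.83 (SE 0.84) and for miR-221-3p 0.26 (SE 0.43).

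The level of miR-221-3p was highest in the library numbered replicate 1 in 5 of 5 groups, at 192 CPM with caerulein 100 nM, 206 with caerulein 100 pM, 249 with TLC-S 250 uM, 244 with TLC-S 62.5 uM and 204 in control. The numbers follow accession order, and libraries of 1 number also share 1 of 3 series of codes in the sample titles. No label says what a code series marks, so a shared day, preparation or run cannot be told from the labels. The pattern was noticed in the data and not tested.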
